A study of Mus musculus with 32 samples.

Results

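Oxygen metabolism leaves cells with peroxides and superoxide, and the genes described here are those that remove them, that make and recycle glutathione, and that control this defence. A working list of 35 genes was taken by symbol from the deposited counts, and all 35 were found among 54429 symbols. The list held 3 regulators (Nfe2l2, Keap1, Sqstm1), quinone and haem enzymes, enzymes of glutathione, thioredoxin and NADPH supply, glutathione transferases and peroxidases, superoxide dismutases, catalase, ferritins and Selenbp1. Bulk RNA-seq had been made from Veravec cells, an established mouse lung endothelial cell (EC) line, so all groups share 1 line and 1 genetic background. Cells of every group went through a pair of siRNA transfections, either with control siRNA (si-control) or with siRNA that targets Dnmt1, the maintenance DNA methyltransferase (si-dnmt). Cytokine groups then received TNF at 10 ng/mL, IFN (interferon gamma) at 1000 U/mL or both (TNF + IFN) for 16 h. The 8 groups, si-control, si-control + TNF, si-control + IFN, si-control + TNF + IFN, si-dnmt, si-dnmt + TNF, si-dnmt + IFN and si-dnmt + TNF + IFN, held 4 libraries each. The comparisons ask how loss of Dnmt1, each cytokine state, and their combination alter the mRNA levels of these genes.

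As background, NRF2 (the product of Nfe2l2) is a transcription factor that is held back by KEAP1, which presents it for degradation. Oxidants and electrophiles modify KEAP1, NRF2 then builds up in the nucleus and binds antioxidant response elements (AREs) beside genes such as Nqo1, Hmox1, Gclm and Txnrd1. The autophagy receptor encoded by Sqstm1 can also bind KEAP1 and so free NRF2. Because NRF2 is regulated largely through its protein, its mRNA level is not a readout of its activity. BACH1, a haem-sensing repressor, competes for the same elements and has Hmox1 as its best known target. ECs line vessels and meet circulating oxidants directly, and Hmox1 and Sod2 are classical stress-responsive genes of endothelium.

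Total counts were 17362546 to 33500030 per library. Levels are CPM, which are counts scaled to library totals with TMM factors. Without cytokine, Dnmt1 (ENSMUSG00000004099) stood at 120.1 ± 35.3 CPM (SD, n = 4) with the control siRNA and at 8.92 ± 2.92 CPM with its own siRNA. Its log2 fold change was between −4.08 and −3.76 in the 4 cytokine states. The silencing was stronger in replicates 3 and 4 than in replicates 1 and 2 in every state. With si-control, Dnmt1 was higher in both replicates 3 and 4 than in replicates 1 and 2, and with si-dnmt it was lower in both. Whether this bears on the siRNA responses that differed between these replicates was not tested. The endothelial markers Cdh5 (847 to 2880 CPM) and Pecam1 (646 to 2166 CPM) were high in all 32 libraries, whereas Cldn5 (0.116 to 42.3 CPM) and Vwf (0.863 to 57.4 CPM) were low. Of 6 leukocyte markers, 5 stayed at or below 0.133 CPM (Ptprc the highest, Cd3e with no count) and Cd68 was at 49.1 to 214 CPM. Of 6 epithelial markers, 5 stayed at or below 0.185 CPM (Cdh1 the highest, Sftpc with no count) and Krt18 was at 3.65 to 22.6 CPM. Within every group, replicates 3 and 4 stood apart from replicates 1 and 2. The labels call all 4 biological replicates and name no batch, so the values of these genes are also given within each replicate set.

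Of the 35 genes, 34 passed the filter on low counts and entered a fit of 15254 genes with edgeR, whose quasi-likelihood F test (two-sided, Benjamini-Hochberg adjustment) called genes at an adjusted p under 0.05. Log2 fold changes are given ± SE. Sod3, an extracellular superoxide dismutase, was not tested: its 46 counts over 32 libraries came to 0 to 9 per library, 12 libraries held 0 counts, and all 4 si-dnmt + TNF + IFN libraries were among them. The same contrasts were refitted with the replicate number as a block, and these values are named "blocked". The block takes out an average difference between replicate numbers, taken as the same in all 8 groups. The part of a difference that varies by group remains.

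The promoter sequences of these genes show how closely the known binding element of NRF2 sits to their starts. In RefSeq windows of 300 bases (250 before to 50 after the start, GRCm38.p6), available for 29 of the 35 genes, the ARE core TGACNNNGC was searched on both strands. It was found for 9 of the 29 genes (31.0%), against 16.9% of the 10527 tested genes with a window. Some genes have several windows, and the 9 matches lay in 9 of 38 windows (23.7%), against 12.4% of the 32851 windows searched. The 9 genes were Nfe2l2, Srxn1, Gclm, Prdx1, Mgst1, Me1, Txnrd1, Sod1 and G6pdx. Hmox1, Gclc, Gsr, Gsta4, Prdx6 and Sod3 had no window and were not searched. A match is a run of letters and not evidence of binding, and a window without one says nothing of elements farther away, where many known AREs lie. Prdx1 and Me1 carried the same 9 letters on opposite strands, shown first, and the matches of Gclm and Txnrd1, a pair of classical NRF2 target genes, follow. The stretches lie at chr4:116685441-116685500 (plus strand), chr9:86695912-86695971 (minus strand), chr3:122245398-122245457 (plus strand) and chr10:82859089-82859148 (plus strand), each written 5′ to 3′ along its gene with the match in capitals.
Prdx1: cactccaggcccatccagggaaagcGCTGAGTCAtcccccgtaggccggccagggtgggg
Me1: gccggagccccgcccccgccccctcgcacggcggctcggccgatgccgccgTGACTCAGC
Gclm: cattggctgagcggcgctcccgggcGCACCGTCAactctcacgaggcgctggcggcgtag
Txnrd1: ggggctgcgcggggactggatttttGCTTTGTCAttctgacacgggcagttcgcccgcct

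Because DNMT1 copies methylation at CG pairs, the 100 bases before the start are shown for Cat, Ftl1 and Selenbp1, genes with called responses to the siRNA in different directions, with each CG in capitals. They lie at chr2:103485154-103485253 (minus strand), chr7:45459887-45459986 (minus strand) and chr3:94932983-94933082 (plus strand). The stretches held 5, 8 and 1 CG pairs in that order. No methylation was measured in these libraries, so the sequences describe the promoters only.
Cat: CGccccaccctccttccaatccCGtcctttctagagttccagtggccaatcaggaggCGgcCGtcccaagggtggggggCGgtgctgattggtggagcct
Ftl1: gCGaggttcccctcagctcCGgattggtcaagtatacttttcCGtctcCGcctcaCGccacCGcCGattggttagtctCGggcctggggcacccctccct
Selenbp1: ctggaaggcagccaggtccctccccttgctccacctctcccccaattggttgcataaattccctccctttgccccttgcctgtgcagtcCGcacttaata
Over the whole 300-base windows, taking the window richest in CG of each gene, the median was 19 CG pairs for the 29 genes and 22 for the tested genes.

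Levels between genes can be compared only per length, here CPM per kilobase of exon averaged over all 32 libraries. The length is that of all annotated exons of a gene merged. It can exceed the length of the transcript in use, and the value of such a gene is then too low. The ferritin heavy chain Fth1 stood highest (1007), followed by the peroxiredoxin Prdx1 (489.9), the ferritin light chain Ftl1 (420.4), Sqstm1 (374), Nqo1 (312), the thioredoxin Txn1 (250.3) and Hmox1 (243). The glutathione synthetase Gss (5.32), Selenbp1 (2.07) and the secreted glutathione peroxidase Gpx3 (1.97) were lowest among the 34 genes of the list that were tested, and Sod3 was at 0.018. These lung ECs held abundant mRNA for iron storage, peroxide removal and quinone reduction, and very little for the secreted enzymes Gpx3 and Sod3. Ftl1, Txn1, Prdx1, Gsta1 with Gsta2, Gstp1 with its neighbours Gstp2 and Gstp3, and the Gstm genes have near-identical copies. The treatment of reads that map to several places and the strand setting were not given in the sources used here. The levels of these genes are therefore uncertain.

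The 2 sets of replicates differed more in these genes than in most. Replicates 3 and 4 both lay above replicates 1 and 2 in all 8 groups for 19 of the 34 genes (55.9%), a pattern found in 6.25% of all genes tested. The opposite pattern held for Sod2 alone (6.08% of all genes). The median difference between the sets (replicates 3 and 4 minus replicates 1 and 2, log2, averaged over groups) was 0.71 for these genes, 0.20 for 66 other genes of the pathway and −0.02 for all genes. It reached 2.86 for Gsta1 and 2.86 for Gsta4, the alpha-class glutathione transferases, 1.51 for Gclm, 1.38 for Nqo1, 1.17 for Gstm1 and 1.02 for Prdx1, and these 6 genes differed at least 2-fold. Gclm, for example, was at 95.2, 91.1, 269 and 269.5 CPM in si-control replicates 1 to 4. No label tells the sets apart, so these differences are described without a test.

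**Figure D1:**
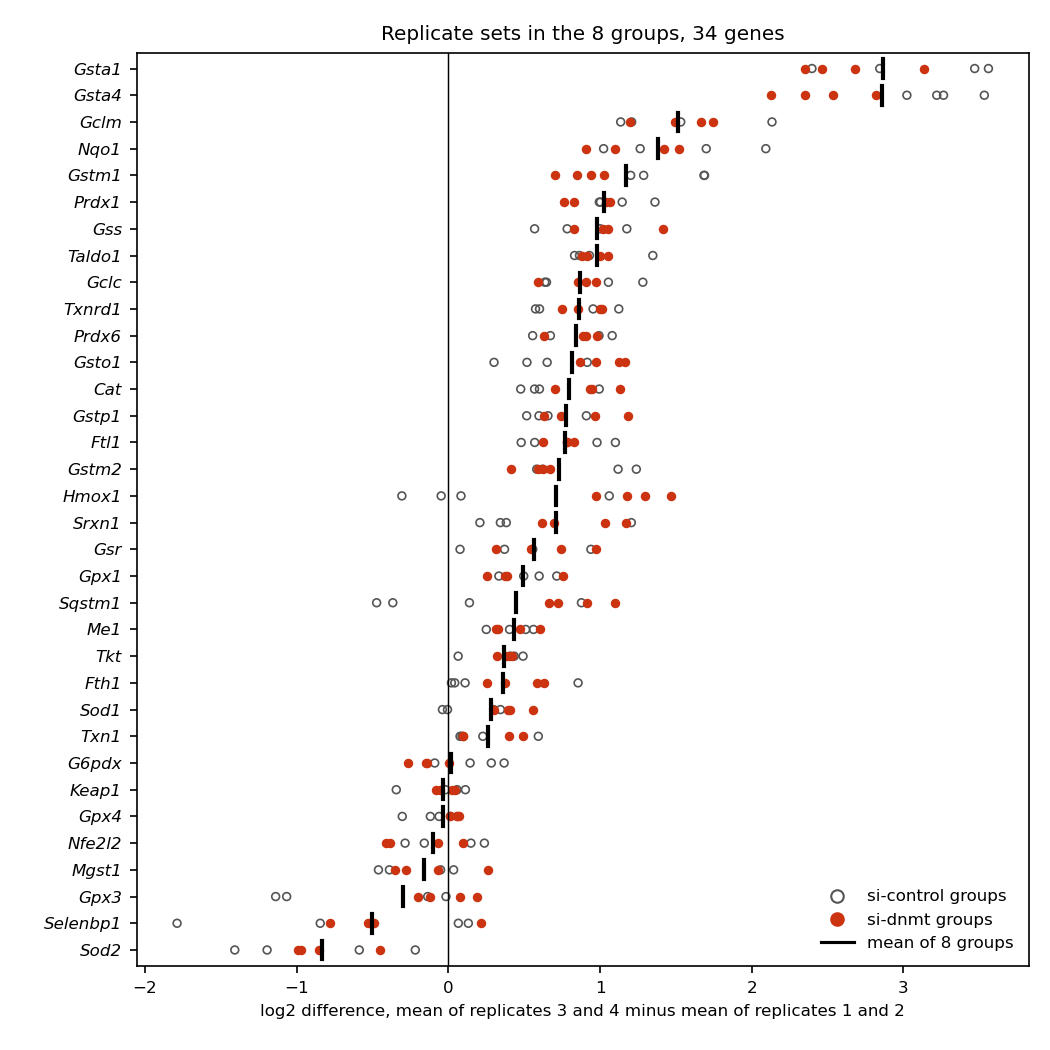
Difference between replicate sets for the 34 genes tested, with 1 point for each of the 8 groups and a bar at their mean. The horizontal axis is log2 of the mean CPM of replicates 3 and 4 minus log2 of the mean CPM of replicates 1 and 2. Most genes lie to the right of 0 in every group, Gsta1 and Gsta4 farthest at means of 2.86 and 2.86, and Sod2 lies to the left in every group.

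Hmox1 and Sqstm1 were among the genes that did not share this pattern. For Hmox1 the difference between the sets was 0.08 in si-control, −0.05 in si-control + IFN and −0.31 in si-control + TNF + IFN, while it was 0.97, 1.30, 1.18 and 1.47 in the si-dnmt groups (no cytokine, TNF, IFN and TNF + IFN). Replicates 3 and 4 were thus well above replicates 1 and 2 in all 4 si-dnmt groups but not in 3 of the si-control groups. For Sqstm1 it ranged from −0.47 to 1.10 over the groups.

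With the replicate number in the fit, more of these genes rose than fell with si-dnmt in every cytokine state. Those that rose in all 4 states were Cat, Gclm, Gclc, Gss, Txnrd1, Srxn1, Prdx6, Gstm2, Gsta1 and Taldo1, and Ftl1 fell in all 4. Without the block, 3 rose and 3 fell (9.58% and 8.88% of all genes) among the 34 without cytokine. The numbers were 3 and 0 (10.4% and 9.59%) under TNF, 2 and 4 (10.8% and 9.54%) under IFN and 2 and 2 (8.97% and 8.72%) under TNF + IFN, each near or below the share of all genes. With the block, 15 rose and 4 fell (16.6% and 15.8% of all genes) without cytokine. Under TNF they were 15 and 3 (17.2% and 16.2%), under IFN 14 and 7 (17.9% and 16.6%) and under TNF + IFN 14 and 5 (15.2% and 15.6%), so that the rises were more frequent than among all genes and the falls were not, apart from a small excess under IFN. Replicates 1 and 2 alone gave 16 and 3 (13.1% and 10.8%), 16 and 2 (13.7% and 12.5%), 16 and 7 (12.7% and 12.6%) and 11 and 10 (11.9% and 11.8%) in the 4 states. Replicates 3 and 4 alone gave 17 and 7 (17.7% and 18.8%), 16 and 4 (17.7% and 18.7%), 17 and 6 (18.6% and 20%) and 20 and 4 (17.1% and 19.1%). In the fit of all libraries without the block, the median log2 fold change of the 34 genes was 0.17, 0.25, 0.21 and 0.27 in the 4 states. The medians for all genes were 0.00 to −0.01. In 10 of the 34 genes si-dnmt was above si-control in all 16 same-numbered pairs of libraries (9.55% of all genes), and in Sod2 and Ftl1 it was below in all 16 (8.1% of all genes). The 10 were Nqo1, Txnrd1, Prdx6, Cat, Gss, Gclm, Gsr, Srxn1, Gstm2 and Gsta1. The 12 endothelial markers summed to a median of 6732 (si-control) and 6574 (si-dnmt) CPM without cytokine and to 4222 and 3338 CPM under TNF + IFN. The 6 fibroblast and mural markers, 5 of which were tested, summed to 64.1 and 26.8 CPM without cytokine. The part of these markers in the results was not tested, and in bulk libraries fewer cells of a type and less RNA per cell cannot be told apart.

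**Figure D2:**
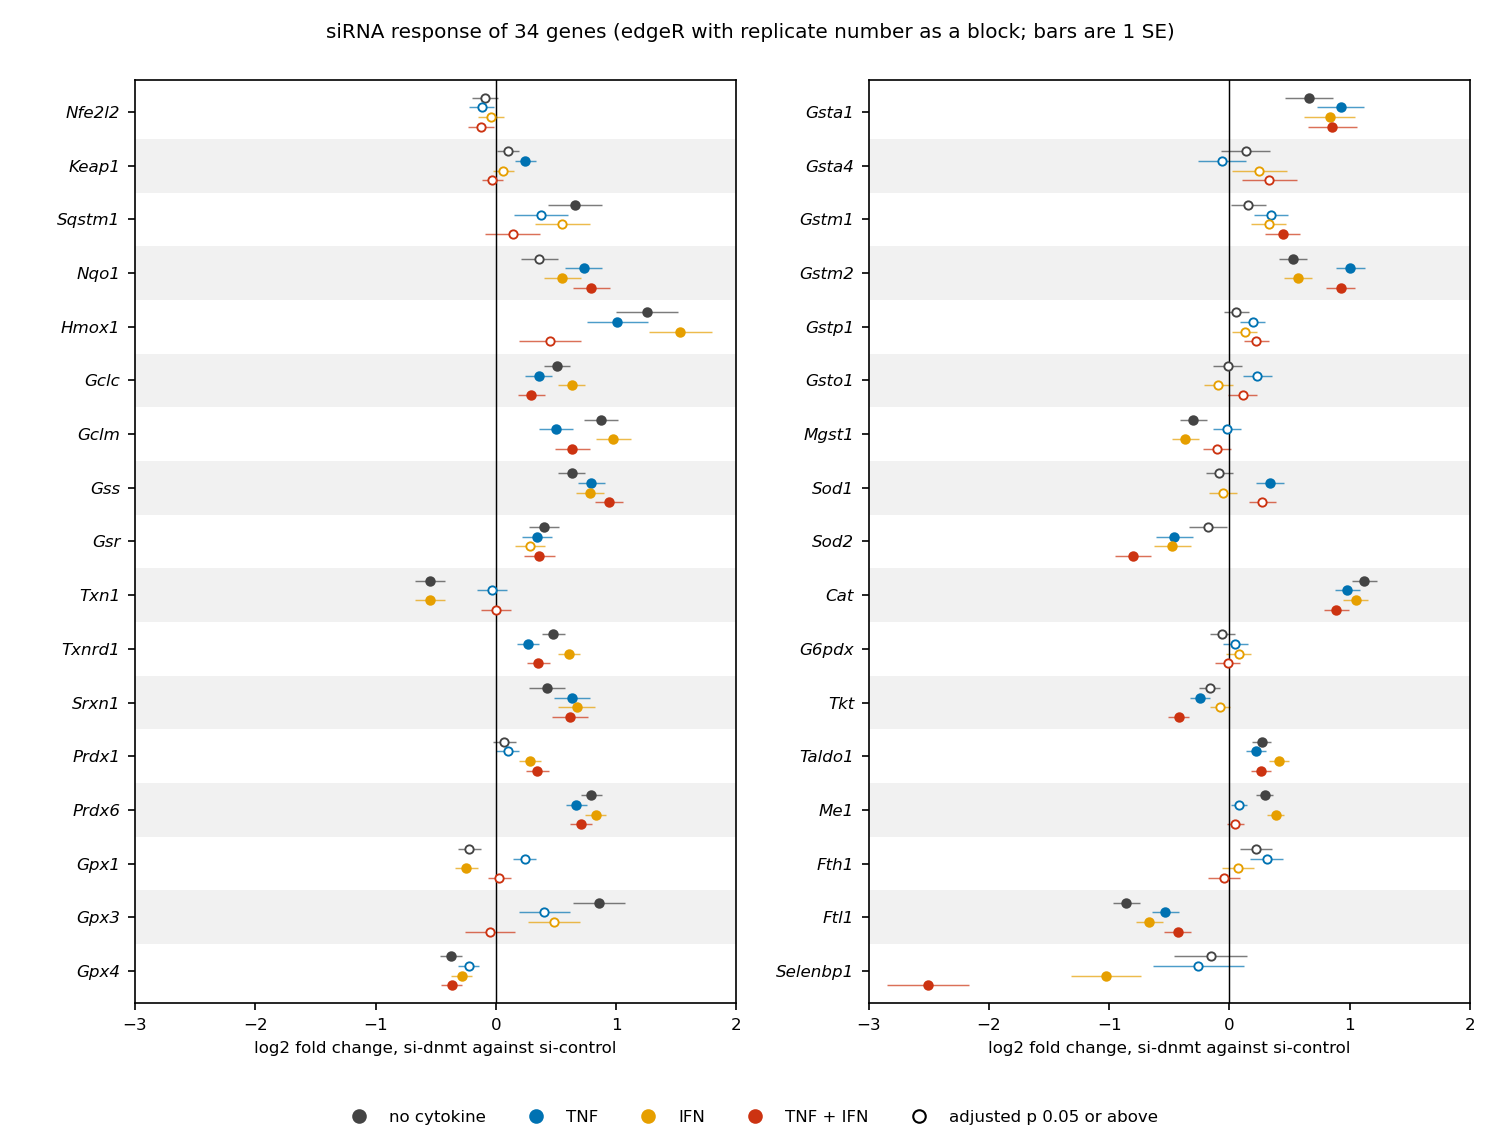
Blocked log2 fold change of si-dnmt against si-control ± SE (horizontal axis) for the 34 genes in the 4 cytokine states, grouped by role, with open points at an adjusted p of 0.05 or above. Hmox1 lies farthest to the right under IFN (1.53), Cat is right of 0 in all 4 states (1.12, 0.98, 1.05 and 0.89), and Selenbp1 (−2.51) farthest to the left under TNF + IFN.

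Hmox1 (ENSMUSG00000005413), which breaks down haem to biliverdin, iron and carbon monoxide, gave the largest rise with si-dnmt. In si-control its libraries stood at 267, 296, 308 and 288 CPM without cytokine, 196, 222, 383 and 490.1 with TNF, 139, 166, 140.2 and 155 with IFN and 312, 338, 269 and 257 with TNF + IFN (replicates 1 to 4 in each, as in all such lists). In si-dnmt they stood at 474, 535, 1031 and 951 CPM without cytokine, 352, 414, 927 and 952 with TNF, 319, 268, 691 and 635 with IFN and 236, 258, 640.0 and 727 with TNF + IFN. All 4 si-dnmt libraries were above all 4 si-control libraries without cytokine and under IFN, while the groups overlapped under TNF and under TNF + IFN. The log2 fold change was 1.37 ± 0.38, adjusted p = 0.0106 without cytokine and 1.67 ± 0.38, adjusted p = 0.00213 under IFN, a 3.19-fold rise. Under TNF it was 1.03 ± 0.37, adjusted p = 0.0488, a call that was lost without library 1, 2 or 3 of si-control + TNF or library 3 or 4 of si-dnmt + TNF (adjusted p = 0.0627 to 0.18), each left out alone. Under TNF + IFN it was 0.66 ± 0.37, adjusted p = 0.238 (blocked 0.45 ± 0.26, adjusted p = 0.191). There si-dnmt was below si-control in replicates 1 and 2 (−0.40) and above it in replicates 3 and 4 (1.38). The responses without cytokine and under TNF + IFN did not differ by a called interaction (−0.70 ± 0.52, adjusted p = 0.783). Within replicates 1 and 2 the interaction was −1.25 with adjusted p = 1.81e-05, while within replicates 3 and 4 no lower interaction was called for Hmox1.

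**Figure D3:**
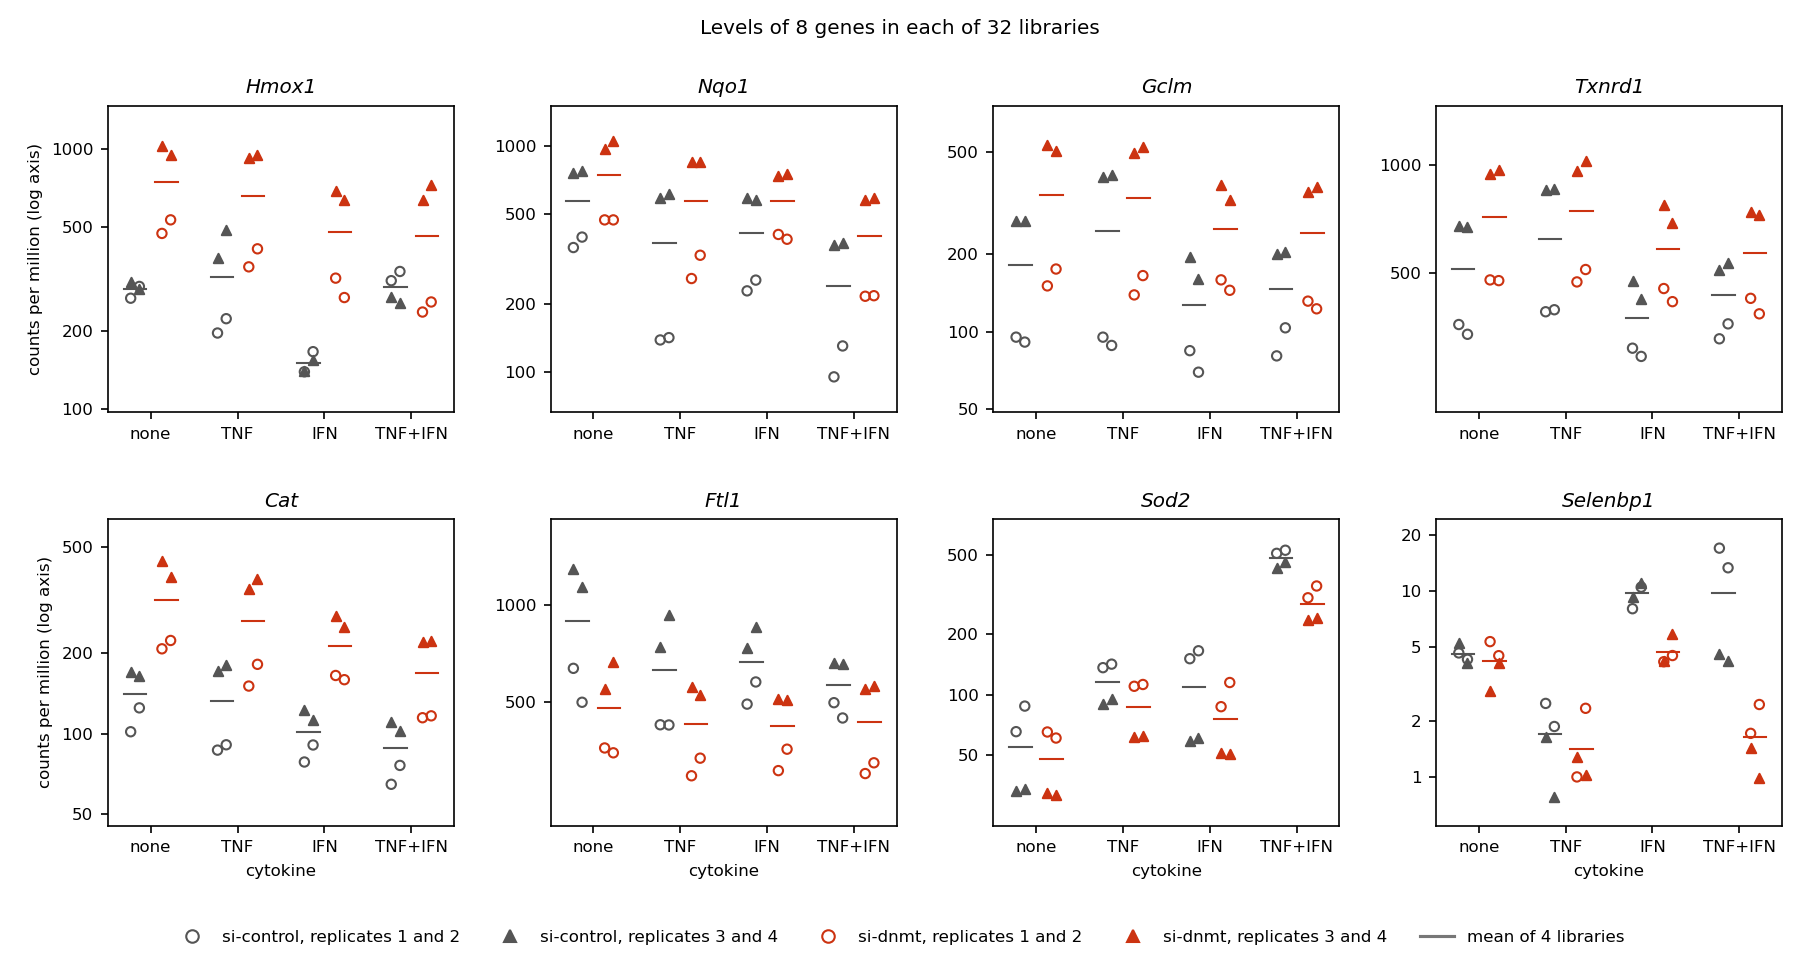
CPM of 8 genes in every library on a log axis, by cytokine state, with si-control in grey, si-dnmt in red, circles for replicates 1 and 2, triangles for replicates 3 and 4 and a bar at the mean of 4 libraries. Cat and Hmox1 are higher in si-dnmt without cytokine with no overlap, Sod2 climbs under TNF + IFN with both siRNAs, and Gclm and Nqo1 split mainly by replicate set.

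Nqo1 (ENSMUSG00000003849), a quinone reductase and a common marker of NRF2 activity, was called in the blocked fit only. In si-control it was at 356, 396, 756 and 771 CPM without cytokine, 139, 142, 586 and 615 with TNF, 229, 256, 587 and 577 with IFN and 95.7, 131, 363 and 373 with TNF + IFN. In si-dnmt it was at 471, 471, 968 and 1052 CPM without cytokine, 259.6, 329, 848 and 844 with TNF, 406, 387, 737 and 752 with IFN and 217, 218, 578 and 586 with TNF + IFN. Each si-dnmt library was above the si-control library of the same number in all 4 states, while the groups overlapped in every state, with replicates 3 and 4 of both siRNAs above replicates 1 and 2. Without the block no state was called (0.38 ± 0.53, 0.62 ± 0.54, 0.47 ± 0.53 and 0.73 ± 0.54 without cytokine, under TNF, IFN and TNF + IFN; adjusted p = 0.686, 0.463, 0.588 and 0.391). The blocked values were 0.36 ± 0.15, 0.73 ± 0.15, 0.55 ± 0.15 and 0.80 ± 0.15 (adjusted p = 0.0694, 4.74e-04, 0.0059 and 2.24e-04), so Nqo1 rose in the 3 cytokine states in the blocked fit only.

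All 4 genes of glutathione synthesis and recycling rose without cytokine in the blocked fit, and none was called without the block. Gclm (ENSMUSG00000028124), the modifier subunit of the rate-limiting glutamate-cysteine ligase, was at 95.2, 91.1, 269 and 269.5 CPM without cytokine, 95.2, 88.4, 399 and 407 with TNF, 84.3, 69.5, 195 and 160.1 with IFN and 80.5, 103, 201 and 203 with TNF + IFN in si-control. The si-dnmt libraries stood at 151, 175, 531 and 505 CPM without cytokine, 139, 165, 497 and 521 with TNF, 159, 145, 372 and 325 with IFN and 131, 123, 348 and 367 with TNF + IFN. All 16 pairs were higher in si-dnmt while the groups overlapped. Its log2 fold changes were 0.91 ± 0.58, 0.42 ± 0.58, 0.97 ± 0.58 and 0.72 ± 0.58 and not called (adjusted p = 0.305, 0.672, 0.256 and 0.442). With the block they were 0.88 ± 0.14, 0.50 ± 0.14, 0.98 ± 0.14 and 0.64 ± 0.14 (adjusted p = 2.39e-05, 0.00717, 6.20e-06 and 0.00112).

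Gclc (ENSMUSG00000032350), the catalytic subunit of that ligase, was at 66.3, 66.3, 137 and 139 CPM without cytokine, 63.8, 63.2, 156 and 153 with TNF, 45.1, 44.1, 72 and 66.6 with IFN and 37.2, 49.6, 67.5 and 68.4 with TNF + IFN in si-control. With si-dnmt the values were 93.9, 105, 187 and 186 CPM without cytokine, 83.4, 99.7, 171 and 188 with TNF, 76.5, 63.6, 109 and 102 with IFN and 51.8, 47.3, 88.1 and 90.7 with TNF + IFN. It was higher in si-dnmt in every pair except replicate 2 under TNF + IFN, with overlapping groups. Its values of 0.49 ± 0.34, 0.31 ± 0.34, 0.63 ± 0.35 and 0.32 ± 0.35 were not called (adjusted p = 0.358, 0.576, 0.215 and 0.589), and the blocked values of 0.51 ± 0.11, 0.36 ± 0.11, 0.63 ± 0.11 and 0.29 ± 0.11 were (adjusted p = 6.62e-04, 0.0131, 6.75e-05 and 0.048). Gss, which adds glycine in the last step, rose by blocked log2 values of 0.63 ± 0.11, 0.79 ± 0.11, 0.78 ± 0.12 and 0.94 ± 0.12 (adjusted p = 7.90e-05, 3.30e-06, 6.23e-06 and 4.96e-07) and was not called without the block. The glutathione reductase Gsr rose in the blocked fit without cytokine, under TNF and under TNF + IFN (0.40, 0.34 and 0.36), and under IFN it was 0.29 ± 0.13, adjusted p = 0.0777.

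Among the thioredoxin genes, Txnrd1, Srxn1 and Prdx6 rose in all 4 states in the blocked fit, and Txn1 fell in 2 states. Txnrd1 (ENSMUSG00000020250), the selenoprotein that reduces thioredoxin, was at 359, 337, 676 and 671 CPM without cytokine, 389, 394, 849 and 858 with TNF, 308, 292, 473 and 421 with IFN and 327, 360.2, 510.4 and 532 with TNF + IFN in si-control. Its si-dnmt libraries were at 478, 475, 943 and 966 CPM without cytokine, 471, 510.5, 959.8 and 1023 with TNF, 452, 415, 770.0 and 687 with IFN and 424, 384, 738 and 724 with TNF + IFN. Every pair was higher in si-dnmt, with overlap between the groups in every state. Its blocked log2 fold changes were 0.48 ± 0.09, 0.27 ± 0.09, 0.61 ± 0.09 and 0.35 ± 0.09 (adjusted p = 1.79e-04, 0.0253, 8.31e-06 and 0.00397), while the values without the block, 0.49 ± 0.34, 0.25 ± 0.34, 0.64 ± 0.34 and 0.39 ± 0.34, were not called (adjusted p = 0.35, 0.661, 0.194 and 0.476).

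Srxn1 (ENSMUSG00000032802), which repairs over-oxidised peroxiredoxins, was at 228, 232, 306 and 293 CPM without cytokine, 192, 199, 431 and 472 with TNF, 152, 162, 187 and 176 with IFN and 188, 200.1, 243 and 249.9 with TNF + IFN in si-control. In si-dnmt it was at 284, 273, 433 and 471 CPM without cytokine, 269, 347, 672 and 715 with TNF, 224, 217, 337 and 339 with IFN and 226, 244, 491 and 472 with TNF + IFN. All 16 pairs were higher in si-dnmt, and under IFN the groups did not overlap. Blocked log2 fold changes were 0.43 ± 0.15, 0.63 ± 0.15, 0.67 ± 0.15 and 0.62 ± 0.15 (adjusted p = 0.0287, 0.00158, 9.71e-04 and 0.00227), and without the block they were 0.47 ± 0.31, 0.63 ± 0.31, 0.72 ± 0.31 and 0.70 ± 0.31 with adjusted p = 0.321, 0.156, 0.0992 and 0.119. Prdx6, a peroxiredoxin that also acts on phospholipids, rose in all 4 states in the blocked fit (0.79, 0.67, 0.83 and 0.71), and Prdx1 rose under IFN and TNF + IFN (0.28 and 0.34).

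Txn1 fell without cytokine (−0.55 ± 0.16, adjusted p = 0.0151) and under IFN (−0.56 ± 0.16, adjusted p = 0.0129), where its groups did not overlap. Its mean level was 215 ± 56.6 CPM (si-control) and 147 ± 30.2 CPM (si-dnmt) without cytokine, and under IFN 344 ± 32.2 CPM and 234 ± 23.6 CPM (SD, n = 4). Under TNF the value was −0.04 ± 0.16, adjusted p = 0.905 and under TNF + IFN 0.02 ± 0.16, adjusted p = 0.963. The interaction was 0.51 ± 0.22, adjusted p = 0.674 for TNF and 0.57 ± 0.22, adjusted p = 0.379 for TNF + IFN, so a difference between states was not called. The call without cytokine was lost without library 3 or 4 of si-control or library 1 or 2 of si-dnmt (adjusted p = 0.0516 to 0.0891), and that under IFN without library 1 of si-dnmt + IFN (adjusted p = 0.0505).

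Catalase (Cat, ENSMUSG00000027187), the peroxisomal enzyme that splits hydrogen peroxide, was the only gene of the list called in all 4 states without the block. In si-control it was at 102, 125, 171 and 165 CPM without cytokine, 86.7, 90.8, 172 and 181 with TNF, 78.2, 90.6, 122 and 113 with IFN and 64.5, 76, 111 and 102 with TNF + IFN. The si-dnmt libraries stood at 208, 223, 446 and 386 CPM without cytokine, 151, 182, 347 and 381 with TNF, 165, 159, 275 and 252 with IFN and 115, 117, 219.6 and 222 with TNF + IFN. The si-dnmt libraries lay above all si-control libraries without cytokine, under IFN and under TNF + IFN, and each pair was higher under TNF too. The log2 fold changes were 1.17 ± 0.32, 1.00 ± 0.32, 1.08 ± 0.32 and 0.93 ± 0.32 (adjusted p = 0.011, 0.0274, 0.0174 and 0.0447), close to 2.25, 2.0, 2.11 and 1.9-fold. With the block they were 1.12 ± 0.10, 0.98 ± 0.10, 1.05 ± 0.10 and 0.89 ± 0.11 with adjusted p of at most 2.51e-07. Replicates 1 and 2 gave 0.94, 0.91, 0.93 and 0.71 and replicates 3 and 4 gave 1.31, 1.04, 1.16 and 1.05, so the rise was present in both sets. The call without the block was lost without library 3 of si-dnmt (adjusted p = 0.0598) for no cytokine, library 1 or 2 of si-control + TNF or library 3 or 4 of si-dnmt + TNF (adjusted p = 0.096 to 0.127) for TNF, library 1 of si-control + IFN or library 3 or 4 of si-dnmt + IFN (adjusted p = 0.0511 to 0.0668) for IFN and library 1, 2 or 4 of si-control + TNF + IFN or library 3 or 4 of si-dnmt + TNF + IFN (adjusted p = 0.0597 to 0.149) for TNF + IFN.

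With si-dnmt, neither of the superoxide dismutases tested was called without the block. Sod2 (ENSMUSG00000006818), the mitochondrial manganese enzyme, was at 65.3, 87.6, 33.1 and 33.7 CPM without cytokine, 136, 142, 90.0 and 95.1 with TNF, 151, 165, 58.8 and 60.5 with IFN and 507, 526, 431 and 457 with TNF + IFN in si-control. With si-dnmt the values were 65, 60.7, 32.3 and 31.7 CPM without cytokine, 110.0, 112, 61.2 and 61.8 with TNF, 87, 115, 51 and 50.5 with IFN and 304, 348, 235 and 242 with TNF + IFN. All 16 pairs were lower in si-dnmt, and under TNF + IFN all si-dnmt libraries lay below all si-control libraries. The values −0.21 ± 0.35, −0.42 ± 0.35, −0.52 ± 0.35 and −0.77 ± 0.35 were not called (adjusted p = 0.737, 0.44, 0.318 and 0.137), and with the block Sod2 fell under TNF, IFN and TNF + IFN (−0.46 ± 0.15, −0.47 ± 0.15 and −0.80 ± 0.15, adjusted p = 0.0211, 0.0174 and 1.70e-04). Sod1, the cytosolic copper-zinc enzyme, rose in the blocked fit under TNF (0.34 ± 0.11, adjusted p = 0.0231) and in no other state.

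Glutathione peroxidases, which use glutathione to reduce peroxides, moved in different directions. Gpx3 (ENSMUSG00000018339), the secreted plasma form, was at 2.3, 1.96, 2.24 and 1.97 CPM without cytokine, 4.17, 3.94, 1.69 and 2.0 with TNF, 2.58, 2.96, 2.18 and 2.86 with IFN and 6.97, 6.35, 3.08 and 3.28 with TNF + IFN in si-control. Its si-dnmt libraries were at 3.52, 3.94, 3.82 and 4.03 CPM without cytokine, 3.66, 4.51, 3.37 and 3.75 with TNF, 3.5, 3.32, 3.68 and 4.1 with IFN and 4.8, 4.92, 4.45 and 4.49 with TNF + IFN. The si-dnmt libraries were all above the si-control libraries without cytokine and under IFN and overlapped with them in the other states. Gpx3 rose without cytokine (0.85 ± 0.24, adjusted p = 0.0133), at a level of a few CPM, and the values were 0.37 ± 0.24, adjusted p = 0.297 under TNF, 0.46 ± 0.24, adjusted p = 0.182 under IFN and −0.08 ± 0.23, adjusted p = 0.865 under TNF + IFN. Its interaction with TNF + IFN was −0.93 ± 0.34, adjusted p = 0.282 (blocked −0.91 ± 0.30, adjusted p = 0.0854). Gpx4, which reduces lipid peroxides in membranes and guards against ferroptosis, fell without cytokine (−0.37 ± 0.09, adjusted p = 0.00392), under IFN (−0.29 ± 0.09, adjusted p = 0.0242) and under TNF + IFN (−0.37 ± 0.09, adjusted p = 0.00444), with no overlap between the groups in these 3 states. The IFN call of Gpx4 was lost without library 2 or 4 of si-control + IFN or library 1 or 3 of si-dnmt + IFN (adjusted p = 0.0505 to 0.0868). Gpx1, the main cytosolic form, fell in the blocked fit under IFN only (−0.25 ± 0.09, adjusted p = 0.0439).

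Of 7 glutathione transferases, which couple glutathione to electrophiles, Gstm2 and Gsta1 rose in all 4 states in the blocked fit. Gstm2 (ENSMUSG00000040562) was at 38.4, 38.4, 92.3 and 89.1 CPM without cytokine, 33.7, 29.1, 45.6 and 48.5 with TNF, 33.7, 33.8, 77.5 and 69.2 with IFN and 22, 24.5, 35.1 and 36.4 with TNF + IFN in si-control. In si-dnmt it was at 69.5, 71.6, 111 and 102 CPM without cytokine, 64.7, 68.8, 93.9 and 83.5 with TNF, 60.9, 57.8, 96.6 and 91.9 with IFN and 42, 46.1, 66 and 69.8 with TNF + IFN. All 16 pairs were higher in si-dnmt, with no overlap under TNF and TNF + IFN. The log2 fold changes were 0.46 ± 0.30, 0.99 ± 0.30, 0.52 ± 0.30 and 0.93 ± 0.30 (adjusted p = 0.318, 0.0203, 0.234 and 0.0331), and all 4 were called with the block (0.53, 1.01, 0.57 and 0.92). The TNF call was lost without library 1 or 2 of si-control + TNF or library 3 of si-dnmt + TNF (adjusted p = 0.0601 to 0.0709) and the TNF + IFN call without library 1 or 2 of si-control + TNF + IFN or library 3 or 4 of si-dnmt + TNF + IFN (adjusted p = 0.0908 to 0.108). Gsta1 rose in all 4 states in the blocked fit (0.66, 0.93, 0.83 and 0.85), Gstm1 rose under TNF + IFN only (0.44 ± 0.15, adjusted p = 0.0218), and Gsta4, Gstp1 and Gsto1 were called in no state by either fit. Mgst1, the microsomal form, fell under IFN (−0.37 ± 0.13, adjusted p = 0.0436), a call lost without library 1 or 2 of si-control + IFN or library 1, 3 or 4 of si-dnmt + IFN (adjusted p = 0.0857 to 0.157), and with the block also without cytokine (−0.30).

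Ferritin light chain Ftl1 lay below si-control in all 16 pairs, and ferritin heavy chain Fth1 was called in no state by either fit. Ftl1 went from 891 ± 384 CPM (SD, n = 4) to 479.6 ± 153 CPM without cytokine, a log2 fold change of −0.89 ± 0.31, adjusted p = 0.0452. That call was lost without library 3 or 4 of si-control or library 1, 2 or 3 of si-dnmt (adjusted p = 0.0677 to 0.18). With the block Ftl1 fell in all 4 states (−0.86 ± 0.11, −0.53 ± 0.11, −0.67 ± 0.11 and −0.43 ± 0.11, adjusted p = 8.63e-07, 4.22e-04, 3.16e-05 and 0.00368). Haem breakdown by HMOX1 releases the iron that ferritin stores, and without cytokine Hmox1 rose while Ftl1 fell.

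Among genes that supply NADPH, none was called without the block in any siRNA contrast. With it, the pentose phosphate enzyme Taldo1 rose in all 4 states (0.27, 0.22, 0.41 and 0.26), Me1, the malic enzyme, rose without cytokine and under IFN (0.29 and 0.38), Tkt fell under TNF and TNF + IFN (−0.25 and −0.42), and G6pdx was called in no state.

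Of the 3 regulators, none was called without the block in any state. Nfe2l2 (ENSMUSG00000015839) was at 289, 353, 264 and 263 CPM without cytokine, 247, 287, 313 and 316 with TNF, 246, 278, 235 and 235 with IFN and 247, 253, 296 and 257 with TNF + IFN in si-control. The si-dnmt libraries stood at 322, 304, 243 and 228 CPM without cytokine, 251, 267, 262 and 292 with TNF, 277, 271, 209 and 211 with IFN and 240.1, 256, 244 and 229 with TNF + IFN. The groups overlapped in every state, with log2 fold changes of −0.09 ± 0.12, −0.12 ± 0.12, −0.04 ± 0.12 and −0.12 ± 0.12 (adjusted p = 0.649, 0.53, 0.863 and 0.535), and the blocked fit called none either.

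Keap1 (ENSMUSG00000003308) was at 49.6, 41.5, 52.6 and 45.9 CPM without cytokine, 55.4, 61.5, 55.3 and 66.4 with TNF, 67.6, 80.7, 65.9 and 80.6 with IFN and 120.5, 111, 89.3 and 92.8 with TNF + IFN in si-control. With si-dnmt the values were 51.5, 49, 47.8 and 56 CPM without cytokine, 67.2, 72.9, 71.5 and 70.7 with TNF, 78.6, 79.7, 69.6 and 80.1 with IFN and 98.4, 108, 97.2 and 102 with TNF + IFN. Its groups overlapped except under TNF, where all si-dnmt libraries were higher, and its log2 fold changes were 0.11 ± 0.09, 0.24 ± 0.09, 0.06 ± 0.09 and −0.03 ± 0.09 (adjusted p = 0.476, 0.0684, 0.692 and 0.882). The TNF value was called with the block (0.25 ± 0.09, adjusted p = 0.034).

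Sqstm1 (ENSMUSG00000015837) was at 851, 890.3, 989 and 929 CPM without cytokine, 848, 905, 1488 and 1734 with TNF, 824, 935, 639 and 726 with IFN and 1580, 1370, 1117 and 1009 with TNF + IFN in si-control. Its si-dnmt libraries were at 1053, 1030, 2035 and 1883 CPM without cytokine, 942, 1135, 2241 and 2214 with TNF, 929.8, 944, 1560 and 1407 with IFN and 1052, 1198, 1830 and 1887 with TNF + IFN. Without cytokine all si-dnmt libraries were higher, and in the other states the groups overlapped. Its log2 fold change of 0.71 ± 0.28, adjusted p = 0.0795 without cytokine was called with the block only (0.66 ± 0.23, adjusted p = 0.0259), and under TNF + IFN replicates 1 and 2 gave −0.39 and replicates 3 and 4 gave 0.81, the same opposite directions as for Hmox1.

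**Figure D4:**
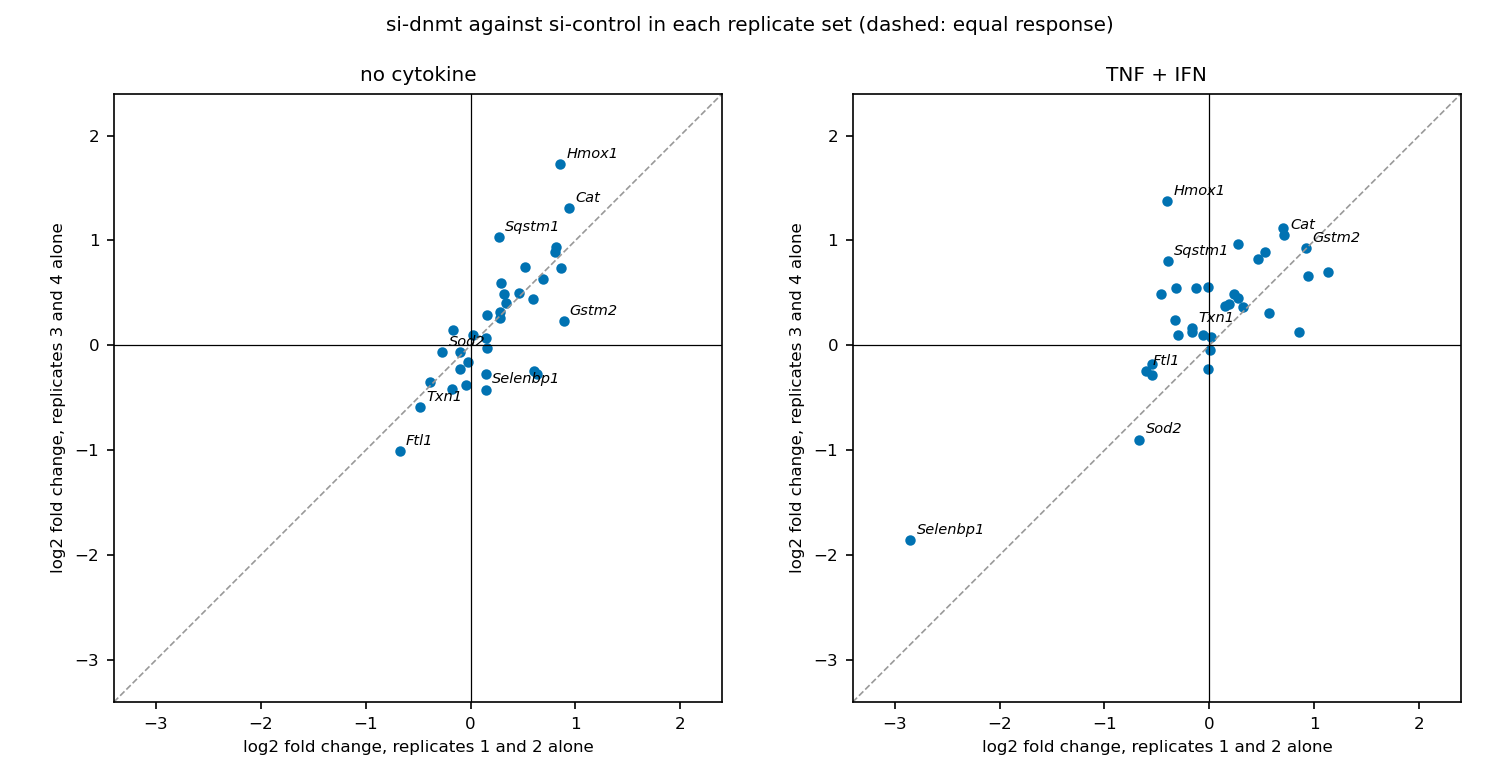
Log2 fold change of si-dnmt against si-control within replicates 1 and 2 (horizontal axis) and within replicates 3 and 4 (vertical axis) for the genes tested, without cytokine and under TNF + IFN, with a dashed line where both sets are equal. Under TNF + IFN, Hmox1 (−0.40 and 1.38) and Sqstm1 (−0.39 and 0.81) lie in the quadrant of opposite signs, while Cat and Gstm2 are positive in both sets.

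Selenbp1 (ENSMUSG00000068874), a selenium-binding protein known as a methanethiol oxidase, was a low gene whose response to si-dnmt differed between TNF + IFN and no cytokine. In si-control it was at 4.65, 4.29, 5.23 and 4.13 CPM without cytokine, 2.49, 1.88, 1.64 and 0.789 with TNF, 8.01, 10.5, 9.27 and 11 with IFN and 16.9, 13.3, 4.56 and 4.18 with TNF + IFN. In si-dnmt it was at 5.34, 4.49, 2.9 and 4.1 CPM without cytokine, 1.01, 2.35, 1.29 and 1.03 with TNF, 4.17, 4.5, 4.19 and 5.86 with IFN and 1.72, 2.46, 1.45 and 0.988 with TNF + IFN. Under IFN and under TNF + IFN all si-dnmt libraries were below all si-control libraries, and in the other states they overlapped. The log2 fold change was −0.12 ± 0.35, adjusted p = 0.854 without cytokine, −0.26 ± 0.39, adjusted p = 0.7 under TNF, −1.04 ± 0.35, adjusted p = 0.0324 under IFN and −2.57 ± 0.38, adjusted p = 2.10e-05 under TNF + IFN. The last of these was −2.85 in replicates 1 and 2 and −1.86 in replicates 3 and 4. The IFN call was lost without library 2, 3 or 4 of si-control + IFN or library 1, 2 or 3 of si-dnmt + IFN (adjusted p = 0.0512 to 0.0844).

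The interaction of the siRNA with TNF + IFN was called for Selenbp1 alone among the 34 genes (−2.44 ± 0.51, adjusted p = 0.0217, when 0.531% of all genes were called). Selenbp1 rose with TNF + IFN in si-control (1.09 ± 0.35, adjusted p = 0.0119) and fell with it in si-dnmt (−1.35 ± 0.38, adjusted p = 0.00511). The rise rested on replicates 1 and 2 (1.77, adjusted p = 9.88e-07), since replicates 3 and 4 gave −0.10 (adjusted p = 0.762), and it was lost without library 1 or 2 of si-control + TNF + IFN (adjusted p = 0.053 to 0.116). The interaction was lost without library 1 or 2 of si-control + TNF + IFN or library 3 or 4 of si-dnmt + TNF + IFN (adjusted p = 0.0503 to 0.0635), each left out alone. For TNF alone, edgeR called 0 interactions among these genes (0.0328% of all genes) and for IFN alone 0 (0.0459%). At an unadjusted p under 0.05 there were 1 and 0. With the block the counts were again 0 for TNF (0.892% of all genes) and 0 for IFN (0.387%), with 6 and 1 at an unadjusted p under 0.05. The block left Selenbp1 alone for TNF + IFN (4.18%). DESeq2 called 0, 0 and 1.

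Within the replicate sets more interactions were called, and they differed between the sets. Replicates 1 and 2 gave 1 interaction with TNF, a higher value of Nqo1 (0.73, adjusted p = 0.0213; 1.97% of all genes), and 5 with TNF + IFN (4.86%). Of the 5, Nqo1 was higher, and Hmox1, Sqstm1, Gpx3 and Selenbp1 were lower. For IFN there were 0 in replicates 1 and 2 (1.8%) and 0 in replicates 3 and 4 (1.01%). Replicates 3 and 4 gave 9 with TNF (8.04%) and 13 with TNF + IFN (11.8%), of which Sod2 (−0.83) and Selenbp1 (−1.43) were lower and 11 higher. Each set has 2 libraries a group, and the difference between the sets was not tested.

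The cytokines alone changed these genes in both directions. In si-control with TNF, 2 rose and 5 fell (16.1% and 14.6% of all genes). The numbers were 4 and 0 (8.56% and 5.92%) with IFN and 6 and 7 (23.5% and 21.6%) with TNF + IFN. None of these shares was far above that of all genes. The medians of the 34 were 0.09, −0.32 and −0.25. With the block the counts became 6 and 11 (22% and 21.4%) for TNF, 5 and 16 (12.7% and 12.7%) for IFN and 7 and 15 (28% and 27%) for TNF + IFN. The falls were then more frequent than among all genes with each of the 3 states. In si-dnmt the counts without the block were 2 and 2 (11.5% and 9.54%) for TNF, 4 and 0 (6.66% and 2.35%) for IFN and 5 and 6 (21.3% and 18.9%) for TNF + IFN. Blocked, they were 7 and 6 (17.8% and 16.5%), 5 and 12 (10.9% and 8.04%) and 6 and 17 (26.6% and 25%). Within replicates 1 and 2 the genes called in either direction were 16 (37.2%), 20 (25.4%) and 27 (49.1%) in si-control and 13 (35.3%), 17 (19.4%) and 25 (47.5%) in si-dnmt. Within replicates 3 and 4 they were 27 (44.4%), 26 (21.9%) and 24 (51.5%) in si-control and 17 (25.1%), 23 (16.1%) and 23 (45%) in si-dnmt. The cytokine contrasts of 1 siRNA share their untreated libraries. The summed endothelial markers had medians of 6732 CPM in si-control, 4480 with TNF, 6127 with IFN and 4222 with TNF + IFN. Their part in the results was not tested.

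**Figure D5:**
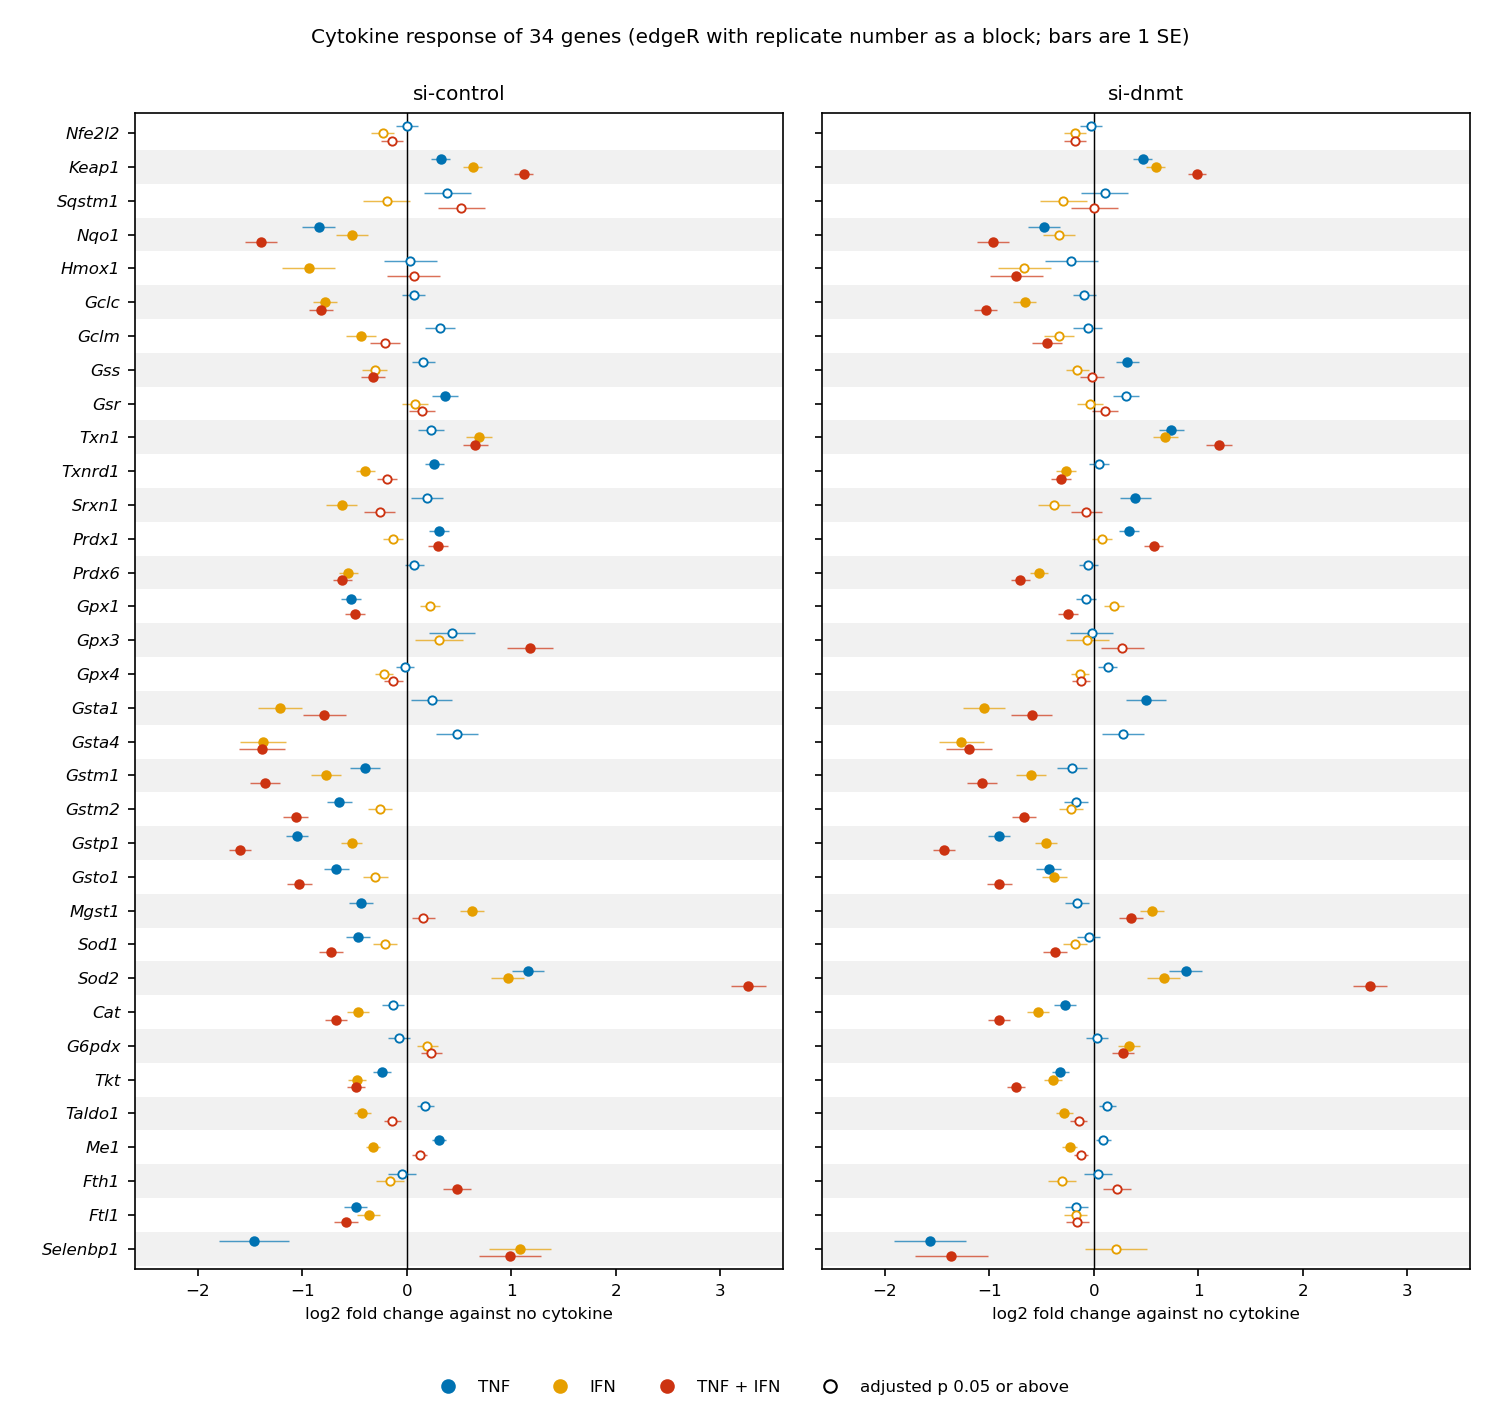
Blocked log2 fold change ± SE (horizontal axis) of each cytokine state against no cytokine in si-control and si-dnmt for the 34 genes, grouped by role, with open points at an adjusted p of 0.05 or above. Sod2 is farthest to the right under TNF + IFN (3.27 in si-control and 2.64 in si-dnmt), Keap1 is raised in all 6 contrasts, and Gstp1 is to the left in all 6.

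Sod2 gave the largest change of the list. Its values in every library, given above, rose with TNF + IFN from 54.9 ± 26.5 CPM to 480.3 ± 43.8 CPM in si-control and from 47.4 ± 17.9 CPM to 282 ± 53.9 CPM in si-dnmt (SD, n = 4), with no overlap. These were log2 fold changes of 3.13 ± 0.38, adjusted p = 9.07e-08 and 2.58 ± 0.37, adjusted p = 1.89e-06, and the interaction was −0.55 ± 0.49, adjusted p = 0.848 (blocked −0.62 ± 0.22, adjusted p = 0.106). TNF alone raised Sod2 in si-control (1.08 ± 0.35, adjusted p = 0.0209), a call lost without library 3 or 4 of si-control or library 1 or 2 of si-control + TNF (adjusted p = 0.0505 to 0.0793), and IFN alone did so in the blocked fit (0.97 ± 0.16, adjusted p = 1.98e-05). In si-dnmt the single cytokines gave 0.87 ± 0.35, adjusted p = 0.0825 (TNF) and 0.68 ± 0.35, adjusted p = 0.304 (IFN), called with the block only (0.88 and 0.67).

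Keap1 rose with every cytokine state and both siRNAs, with no overlap between treated and untreated libraries in any of the 6 contrasts. In si-control the log2 fold changes were 0.33 ± 0.09, 0.64 ± 0.09 and 1.12 ± 0.10 for TNF, IFN and TNF + IFN (adjusted p = 0.00801, 1.04e-05 and 1.08e-10). In si-dnmt they were 0.47 ± 0.09, 0.59 ± 0.09 and 0.99 ± 0.09 (adjusted p = 6.29e-04, 4.05e-05 and 1.60e-09). Nfe2l2, its partner, was called in none of the 6 contrasts by either fit. Sqstm1 lay higher in all 4 si-control + TNF + IFN libraries than in the untreated ones, at 0.47 ± 0.28, adjusted p = 0.181, which was not called.

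Txn1 rose with IFN (0.67 ± 0.16, adjusted p = 0.00342) and also with TNF + IFN (0.63 ± 0.16, adjusted p = 0.00176) in si-control, and with all 3 states in si-dnmt (0.73 ± 0.16, 0.67 ± 0.16 and 1.20 ± 0.16, adjusted p = 0.00151, 0.00517 and 6.33e-07). In si-control with TNF it was 0.21 ± 0.16, adjusted p = 0.332. In these contrasts that were called, treated and untreated libraries did not overlap. Mgst1 fell with TNF (−0.44 ± 0.13, adjusted p = 0.0102) and rose with IFN (0.63 ± 0.13, adjusted p = 8.38e-04) in si-control, and rose with IFN (0.56 ± 0.13, adjusted p = 0.00413) and also with TNF + IFN (0.35 ± 0.13, adjusted p = 0.0325) in si-dnmt, the last of these a call lost without library 3 or 4 of si-dnmt or library 1, 2 or 4 of si-dnmt + TNF + IFN (adjusted p = 0.0523 to 0.132). Gpx3 rose with TNF + IFN in si-control (1.22 ± 0.24, adjusted p = 1.53e-04), where all treated libraries were above all untreated ones.

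Gstp1, Gstm1, Gstm2 and Gsto1 fell with TNF + IFN in si-control. Gstp1 (ENSMUSG00000060803), the pi-class enzyme, was at 346, 312, 554 and 483 CPM without cytokine, 153, 139, 261 and 286 with TNF, 224, 241, 346 and 358 with IFN and 109.9, 118, 162 and 163 with TNF + IFN in si-control. The si-dnmt libraries stood at 340.2, 323, 540.5 and 570.4 CPM without cytokine, 165, 162, 343 and 296 with TNF, 243, 260.4, 378 and 400.3 with IFN and 94.8, 114, 227 and 249 with TNF + IFN. In si-control its libraries with TNF and with TNF + IFN lay below all untreated ones, and in si-dnmt those with TNF + IFN did. Gstp1 fell with TNF + IFN in si-control (−1.62 ± 0.32, adjusted p = 1.30e-04) and si-dnmt (−1.37 ± 0.32, adjusted p = 8.38e-04). TNF alone lowered it in both as well (−1.01 ± 0.31, adjusted p = 0.0141 in si-control and −0.88 ± 0.31, adjusted p = 0.0438 in si-dnmt). The TNF calls were lost without library 3 of si-control or library 1 or 2 of si-control + TNF (adjusted p = 0.0507 to 0.0557) and without library 3 or 4 of si-dnmt or library 1 or 2 of si-dnmt + TNF (adjusted p = 0.111 to 0.145).

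Gstm1 (ENSMUSG00000058135), a mu-class enzyme, was at 88.5, 103, 319 and 298 CPM without cytokine, 83.4, 86.4, 196 and 219 with TNF, 52.5, 59.5, 176 and 184 with IFN and 43, 47.1, 102 and 105 with TNF + IFN in si-control. With si-dnmt the values were 148, 141, 259.7 and 259.9 CPM without cytokine, 125, 136, 221 and 205 with TNF, 97, 82.8, 175 and 191 with IFN and 63.1, 70.9, 129 and 128 with TNF + IFN. Every same-numbered si-control library was lower with TNF, IFN and TNF + IFN than without, although the groups overlapped. Gstm1 fell with TNF + IFN in si-control (−1.44 ± 0.47, adjusted p = 0.0131), a call lost without library 3 or 4 of si-control (adjusted p = 0.0517 to 0.0615), and Gstm2 fell likewise (−1.13 ± 0.30, adjusted p = 0.00318) with no overlap.

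Gsto1 (ENSMUSG00000025068), the omega-class enzyme, was at 146, 143, 237 and 218 CPM without cytokine, 83.1, 82.5, 149 and 164 with TNF, 117, 129, 174 and 178 with IFN and 72, 86.6, 96.2 and 99.3 with TNF + IFN in si-control. Its si-dnmt libraries were at 129.8, 127, 251 and 253 CPM without cytokine, 89.3, 90.3, 199 and 193 with TNF, 102, 103, 188 and 186 with IFN and 61.9, 65.4, 136 and 149.7 with TNF + IFN. Its si-control libraries with TNF + IFN were all below the untreated ones. It fell with TNF + IFN in si-control (−1.07 ± 0.33, adjusted p = 0.00961) and in si-dnmt (−0.88 ± 0.33, adjusted p = 0.0347), the latter lost without library 3 or 4 of si-dnmt or library 1 or 2 of si-dnmt + TNF + IFN (adjusted p = 0.114 to 0.125). The alpha-class genes Gsta1 and Gsta4 fell with IFN in the blocked fit and were not called without it, with values of −1.22 and −1.04 for Gsta1 and −1.38 and −1.26 for Gsta4 in si-control and si-dnmt.

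Of the glutathione synthesis genes, Gclc fell with TNF + IFN in si-control (−0.87 ± 0.35, adjusted p = 0.0413) and in si-dnmt (−1.04 ± 0.35, adjusted p = 0.0174), with no overlap in si-dnmt. The calls were lost without library 3 or 4 of si-control or library 1 or 2 of si-control + TNF + IFN (adjusted p = 0.0891 to 0.136) and without library 3 or 4 of si-dnmt or library 1 or 2 of si-dnmt + TNF + IFN (adjusted p = 0.0596 to 0.0651). With IFN, Gclc fell in the blocked fit, with values of −0.78 and −0.66 in si-control and si-dnmt. Gclm fell in the blocked fit with IFN in si-control (−0.43 ± 0.14, adjusted p = 0.0252) and with TNF + IFN in si-dnmt (−0.45 ± 0.14, adjusted p = 0.00952), and was called in no cytokine contrast without it.

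Several NRF2 target genes fell with IFN once the block was in the fit. In si-control these were Hmox1 (−0.94 ± 0.26, adjusted p = 0.0066), Srxn1 (−0.62 ± 0.15, adjusted p = 0.00238), Nqo1 (−0.52 ± 0.15, adjusted p = 0.0116) and Txnrd1 (−0.40 ± 0.09, adjusted p = 0.00164). Without the block their values were −0.95, −0.64, −0.47 and −0.45 (adjusted p = 0.0921, 0.184, 0.662 and 0.449). In si-dnmt, Hmox1 was called with TNF + IFN in the blocked fit (−0.74 ± 0.25, adjusted p = 0.0156). All si-control + IFN libraries of Hmox1 and of Srxn1 were below all untreated ones. With TNF in si-control, both genes went in opposite directions in the 2 sets. Replicates 1 and 2 were below the untreated libraries of their number, and replicates 3 and 4 were above theirs. Gclm was higher with TNF than without in replicates 3 and 4 of si-control only. What separates the sets was not tested. Nqo1 also fell with TNF (−0.84 ± 0.15, adjusted p = 5.88e-05) and TNF + IFN (−1.39 ± 0.16, adjusted p = 1.09e-08) with the block, and each si-control library was below the untreated library of its number in all 3 states. Its fall with TNF was larger in replicates 1 and 2, from 356 and 396 to 139 and 142 CPM. The other set went from 756 and 771 to 586 and 615 CPM. In si-control the log2 difference between the sets was 1.02 without cytokine, 2.09 with TNF, 1.26 with IFN and 1.70 with TNF + IFN. The block takes this difference as the same in all groups, so the blocked values of Nqo1 average unlike falls.

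Sod1 fell with TNF (−0.49 ± 0.16, adjusted p = 0.0186) in si-control and also under TNF + IFN there (−0.74 ± 0.16, adjusted p = 3.14e-04). Its TNF call was lost without library 3 of si-control or library 2 or 3 of si-control + TNF (adjusted p = 0.0529 to 0.0713). Gpx1 fell with TNF (−0.57 ± 0.21, adjusted p = 0.04), a call lost without library 3 or 4 of si-control or library 1, 2 or 3 of si-control + TNF (adjusted p = 0.0583 to 0.162). Cat fell with TNF + IFN in si-dnmt (−0.91 ± 0.32, adjusted p = 0.0244), a call lost without library 3 or 4 of si-dnmt or library 1 or 2 of si-dnmt + TNF + IFN (adjusted p = 0.0702 to 0.107), and in si-control it fell in the blocked fit (−0.67 ± 0.10, adjusted p = 3.18e-06). The pentose phosphate enzyme Tkt fell with TNF + IFN in si-control (−0.51 ± 0.17, adjusted p = 0.0125) and in si-dnmt (−0.74 ± 0.17, adjusted p = 6.00e-04). For Tkt the first of these calls was lost without library 3 of si-control (adjusted p = 0.0637). G6pdx, the first enzyme of that pathway, rose in si-dnmt with IFN (0.34 ± 0.11, adjusted p = 0.0453) and also with TNF + IFN (0.28 ± 0.11, adjusted p = 0.0349), calls lost without library 3 or 4 of si-dnmt or library 1, 2 or 4 of si-dnmt + IFN (adjusted p = 0.0811 to 0.172) and without library 3 or 4 of si-dnmt or library 1, 2 or 3 of si-dnmt + TNF + IFN (adjusted p = 0.0618 to 0.135). Fth1 rose with TNF + IFN in si-control (0.48 ± 0.19, adjusted p = 0.0441), a call lost when any 1 of the 8 libraries compared was left out (adjusted p up to 0.098). Selenbp1 fell with TNF in si-control (−1.42 ± 0.37, adjusted p = 0.00423) and si-dnmt (−1.56 ± 0.38, adjusted p = 0.00354), and rose with IFN in si-control (1.08 ± 0.35, adjusted p = 0.0352), a call lost without library 1, 2 or 4 of si-control or library 2, 3 or 4 of si-control + IFN (adjusted p = 0.059 to 0.09).

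A further 72 genes of the pathway, of which 66 were tested, were described by count. With si-dnmt 6 rose and 3 fell without cytokine (9.58% and 8.88% of all genes), 9 and 6 under TNF (10.4% and 9.59%), 6 and 4 under IFN (10.8% and 9.54%) and 5 and 4 under TNF + IFN (8.97% and 8.72%). These were near or below the shares of all genes, apart from the rises under TNF. With the block they were 15 and 8 (16.6% and 15.8%), 23 and 10 (17.2% and 16.2%), 13 and 7 (17.9% and 16.6%), and 15 and 11 (15.2% and 15.6%). Slc40a1, the iron exporter ferroportin, rose in all 4 states (1.48, 1.31, 2.10 and 1.82). Osgin1, an oxidative stress-induced growth inhibitor, rose without cytokine (1.76 ± 0.57, adjusted p = 0.0299) and under IFN (1.63 ± 0.57, adjusted p = 0.0438). Its call without cytokine was lost without library 1, 2 or 4 of si-control or library 3 or 4 of si-dnmt (adjusted p = 0.0529 to 0.135). Its IFN call was lost without library 1, 2, 3 or 4 of si-control + IFN or library 3 or 4 of si-dnmt + IFN (adjusted p = 0.0657 to 0.161). Gpx7, a peroxidase of the endoplasmic reticulum, was close to the limit of detection, at group means of 0.20 to 0.77 CPM with 15 to 69 counts over the 4 libraries of a group. It rose in the 3 cytokine states (1.23, 1.42 and 1.42), and under TNF + IFN its value was 2.79 in replicates 1 and 2 and 0.25 in replicates 3 and 4. The TNF call of Gpx7 was lost without library 2 or 3 of si-control + TNF or library 1, 2, 3 or 4 of si-dnmt + TNF (adjusted p = 0.0573 to 0.13). The IFN call was lost without library 1 or 3 of si-control + IFN (adjusted p = 0.0586 to 0.0672), and that under TNF + IFN without library 1, 2 or 3 of si-control + TNF + IFN or library 1 or 2 of si-dnmt + TNF + IFN (adjusted p = 0.0736 to 0.134). Akr1b3, the aldose reductase, fell without cytokine (−2.09 ± 0.73, adjusted p = 0.0445), with −2.26 and −0.43 in the sets. That call was lost without library 1 or 2 of si-control or library 3 or 4 of si-dnmt (adjusted p = 0.125 to 0.213). Chac1, which degrades glutathione, fell in the cytokine states (−1.71, −1.14 and −1.28), the IFN call being lost without library 4 of si-control + IFN (adjusted p = 0.0604). Slc7a11, the cystine importer that feeds glutathione synthesis, fell under TNF (−1.25 ± 0.43, adjusted p = 0.041), a call lost without library 3 or 4 of si-control + TNF or library 1, 2 or 3 of si-dnmt + TNF (adjusted p = 0.0524 to 0.157).

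In the si-control cytokine contrasts 8 of these 66 genes rose and 12 fell with TNF (16.1% and 14.6% of all genes), 5 and 5 with IFN (8.56% and 5.92%) and 10 and 17 with TNF + IFN (23.5% and 21.6%). The rises were below and the falls a little above the shares of all genes. With the block they were 11 and 15 for TNF (22% and 21.4%), 6 and 20 for IFN (12.7% and 12.7%) and 11 and 29 for TNF + IFN (28% and 27%). TNF raised Chac1 (1.86 ± 0.31, adjusted p = 4.61e-05) and Slc7a11 (1.50 ± 0.44, adjusted p = 0.00939) most and lowered Akr1b3 (−2.33) and Mgst3 (−1.37) most. The Slc7a11 call was lost without library 3 of si-control + TNF (adjusted p = 0.0502). The Akr1b3 call was lost without library 1 or 2 of si-control or library 3 or 4 of si-control + TNF (adjusted p = 0.0511 to 0.1). For Akr1b3 with TNF, replicates 1 and 2 gave −2.74 (adjusted p = 4.19e-11) and replicates 3 and 4 gave 0.10 (adjusted p = 0.479). IFN raised Ggct (2.13) and the glutaredoxin Glrx (2.06) and lowered Slc40a1 (−1.21) and Idh1 (−0.68). The Idh1 call was lost without library 1 or 2 of si-control or library 3 or 4 of si-control + IFN (adjusted p = 0.054 to 0.12). TNF + IFN raised Chac1 (2.41) and Ggct (2.11) and lowered Aldh3a1 (−4.08 ± 1.57) and Akr1b3 (−3.07). The Aldh3a1 call was lost without library 3 or 4 of si-control or library 1, 2, 3 or 4 of si-control + TNF + IFN (adjusted p = 0.0517 to 0.0988) and was not made by DESeq2. Ggct and Chac1 both encode enzymes that break down gamma-glutamyl peptides, and both rose with TNF, with IFN and with TNF + IFN in si-control. The Chac1 call with IFN was lost without library 4 of si-control + IFN (adjusted p = 0.0841).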

How the data were processed

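The authors deposited whole counts per gene for each of 32 libraries, without normalization, together with a table that merges them by symbol. Per the labels' processing notes reads were handled with cutadapt 4.9, FastQC 0.12.1, MultiQC 1.27.1 and featureCounts, and DESeq2 is also named. The aligner, genome build, annotation and strand setting were not given in the sources used here. From the deposited counts, genes passing edgeR's filterByExpr (minimum count 10 over the 8 groups) were kept, TMM factors were computed, and all 32 libraries were fitted with 8 group means (edgeR 4.0.16, R 4.3.3). SE is the absolute log2 fold change over the root of F. The P-values of the fit without the block measure the spread between libraries that the labels call biological replicates. Blocked P-values leave out the average spread between replicate numbers. Those within a replicate set rest on 2 libraries a group, so neither kind measures the spread over all 4 replicates. CPM is scaled by TMM, and exon lengths, with all annotated exons of a gene merged, come from GENCODE M21.

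The list of 35 genes, the other pathway genes and the tests were chosen with earlier results of these data known. Values in every library are given for Nqo1, Hmox1, Gclm, Gclc, Txnrd1, Srxn1, Nfe2l2, Keap1, Sqstm1 and Sod2, and for each listed gene called and changed by 1 or more on the log2 scale in an siRNA contrast or a si-control cytokine contrast. Of the other pathway genes the 3 largest called rises and falls over the siRNA contrasts and the 2 largest each way in each si-control cytokine contrast are named. The replicate numbers in the labels were checked: deviations from group means correlated at 0.297 or more between same-numbered libraries of different groups (28 pairs per number), at 0.209 to 0.564 between differently numbered libraries of the same set, and at −0.59 to −0.24 between sets. The medians were 0.411 to 0.415 for the same number and 0.409 for the other number of the set, and 24 of 32 libraries correlated best with their own number, so the correlations separate the 2 sets more clearly than the 4 numbers. The blocked fit is given beside the other. Alternatives were the block, each replicate set alone, DESeq2 1.42.0, relative log expression scaling, no filter, only the compared groups in the fit, and leaving out each library. The steps were tested on simulated counts. These were drawn without a difference between replicate sets, so that test cannot tell how either fit performs where the sets differ.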

Additional observations from a re-analysis of the deposited data

Results flagged for a closer look

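Selenbp1 was flagged because its response to si-dnmt differed between TNF + IFN and no cytokine: the interaction was −2.44 on the log2 scale (edgeR quasi-likelihood F test, adjusted p = 0.0217). Among 280 groups of 4 libraries that were looked at for a library far from the other 3, 2 passed Dixon's critical value for 4 values. Chance flags about 1 group in 20 where the 4 values come from 1 normal distribution. Many groups here split into replicate sets of 2 and 2 libraries, so that rate does not apply to them. Keap1 in si-dnmt + IFN had 1 library at 69.6 CPM beside 78.6, 79.7 and 80.1 CPM, a gap of 0.857 of the group's range. G6pdx in si-control had 1 library at 138 CPM beside 167, 168 and 170.2 CPM, a gap of 0.913 of the range.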

How the results depend on the processing

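Counts of the 34 genes called moved most with the replicate sets. For si-dnmt against si-control (no cytokine, TNF, IFN and TNF + IFN) the replicate block gave 19, 18, 21 and 19 genes, replicates 1 and 2 alone 19, 18, 23 and 21, and replicates 3 and 4 alone 24, 20, 23 and 24. For the cytokines in si-control (TNF, IFN and TNF + IFN) the block gave 17, 21 and 22, replicates 1 and 2 alone 16, 20 and 27, and replicates 3 and 4 alone 27, 26 and 24. For the cytokines in si-dnmt the block gave 13, 17 and 23, replicates 1 and 2 alone 13, 17 and 25, and replicates 3 and 4 alone 17, 23 and 23. Replicates 1 and 2 alone gave 1 called interaction with TNF and 5 with TNF + IFN. Replicates 3 and 4 alone gave 9 and 13. With only the compared groups fitted, 1 gene was called for si-dnmt under TNF and 0 for the interaction with TNF + IFN. With each library left out in turn, the counts ranged over 4 to 6, 0 to 4, 2 to 5 and 2 to 5 for si-dnmt in the 4 states, 3 to 8, 3 to 5 and 9 to 14 for the cytokines in si-control, 3 to 4, 3 to 4 and 6 to 12 in si-dnmt, and 0 to 0, 0 to 0 and 0 to 1 for the interactions. For si-dnmt under TNF the count was 0 when library 1 or 2 of si-control + TNF or library 3 of si-dnmt + TNF was left out, and 1 without library 4 of si-dnmt + TNF. Under IFN it was 3 without library 2 of si-control + IFN and 2 without library 1 or 3 of si-dnmt + IFN. Under TNF + IFN it was 2 without library 1 or 2 of si-control + TNF + IFN, and also without library 3 or 4 of si-dnmt + TNF + IFN, and without any of these 4 the interaction count was 0. For TNF in si-control it was 3 without library 3 of si-control or library 2 of si-control + TNF, and 4 without library 1 of si-control + TNF. For TNF + IFN in si-dnmt it was 6 without library 3 or 4 of si-dnmt, and also without library 1 or 2 of si-dnmt + TNF + IFN. With 1 library left out, 421 single-gene values kept their call, 123 lost it and 0 changed direction, and 31 of 63 called values lost it without at least 1 library, as did 13 of the 28 values named for other pathway genes. The single-gene values that reversed, both in replicates 3 and 4 alone, were that of Akr1b3 with TNF in si-control, which was 0.10 (adjusted p = 0.479), and that of Selenbp1 with TNF + IFN against no cytokine in si-control, which was −0.10 (adjusted p = 0.762). Of 67 called values of the listed genes and Dnmt1, DESeq2 kept the call of 67, RLE scaling 65, no filter 57, the compared groups alone 53, the block 67, replicates 1 and 2 alone 64 and replicates 3 and 4 alone 64. The cause of these moves was not tested. Counts of 2 libraries a group limit the values within each set, and Gpx3 and Selenbp1, at a few CPM, rest on the fewest counts among these 34 genes.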
